A study of Rattus norvegicus with 6 samples.

Results

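The genes described here make proteins that hold zinc inside the cell, sense it, or move it out of the cytosol or out of mitochondria. They are 3 metallothionein genes (Mt1, Mt2A and Mt3), the zinc-sensing transcription factor Mtf1 and 6 zinc exporters of the ZnT family (Slc30a1, Slc30a2, Slc30a4, Slc30a5, Slc30a7 and Slc30a9). They were chosen by name, and a probe was assigned to a gene through its RefSeq accession. All 10 genes had a probe, of 15645 genes with a matched probe on the array, and together they had 17 probes. Each of the 17 probes was well above background on all 6 arrays, so all 10 genes passed the filter on dim probes and none of their spots was saturated.

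The tissue was renal cortex from male Sprague-Dawley rats (Crl:CD(SD)), purchased at an age of 5 weeks. In the DNPT group, 3 rats received N,N'-dinitrosopentamethylenetetramine, which carries N-nitroso groups, at a daily dose of 200 mg/kg over 4 weeks. In the vehicle group, 3 rats received corn oil over 4 weeks. The labels call the samples biological replicates, and each was hybridised to its own 1-colour Agilent array. Each signal below is on the log2 scale after division by the array's 75th percentile, so that 0 is that percentile and a difference of 1 is a doubling. Signals are those of single probes, and the levels of different probes cannot be set against each other. Means carry the SD over n = 3 rats, and a change is the DNPT mean minus the vehicle mean, with limma's standard error (SE). Of the 3 DNPT rats, only replicate 1 was hybridised on slide 1 with the vehicle rats, so the value on slide 1 alone is given where it turns or moves a change.

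Metallothioneins are small proteins rich in cysteine that bind zinc, copper and cadmium. Of their genes, Mt1 and Mt2A are known to be switched on when free zinc rises. The sensor is Mtf1, a zinc finger protein that binds metal response elements in the promoters of Mt1, Mt2A and Slc30a1. Most ZnT proteins carry zinc out of the cytosol, either through the plasma membrane or into vesicles or the Golgi apparatus, while ZnT9 exports zinc from mitochondria. In the kidney, metallothioneins of the tubule are best known for retaining cadmium and other metals.

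The promoters of 5 members are shown because the metal response element is the sequence through which this pathway is known to act. The sequences are from RefSeq on the GRCr8 build, from 250 bases before to 50 bases after the transcription start, written 5′ to 3′ along the gene's strand. Capitals mark the core of the metal response element, TGCACNC or TGCGCNC, on either strand. On the strand opposite to the gene, a match reads as the reverse complement. Mt1 (chr19:10832926-10833225), Mt2A (chr19:10838659-10838958) and Mt3 (chr19:10856031-10856330) lie on the minus strand, and Slc30a1 (chr13:106021769-106022068) and the first of the 2 listed starts of Slc30a2 (chr5:151843201-151843500) on the plus strand.
Mt1: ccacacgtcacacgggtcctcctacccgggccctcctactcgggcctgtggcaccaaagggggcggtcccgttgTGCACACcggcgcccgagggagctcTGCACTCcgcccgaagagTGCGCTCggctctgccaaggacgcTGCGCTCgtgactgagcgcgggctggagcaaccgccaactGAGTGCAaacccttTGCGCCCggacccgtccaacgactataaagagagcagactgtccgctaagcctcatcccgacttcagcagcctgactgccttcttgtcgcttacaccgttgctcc
Mt2A: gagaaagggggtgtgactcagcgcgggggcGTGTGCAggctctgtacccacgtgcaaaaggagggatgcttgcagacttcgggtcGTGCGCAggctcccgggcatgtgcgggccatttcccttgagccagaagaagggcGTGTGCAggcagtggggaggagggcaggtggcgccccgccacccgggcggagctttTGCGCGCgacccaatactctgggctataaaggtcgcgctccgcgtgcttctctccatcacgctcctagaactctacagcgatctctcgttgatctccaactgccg
Mt3: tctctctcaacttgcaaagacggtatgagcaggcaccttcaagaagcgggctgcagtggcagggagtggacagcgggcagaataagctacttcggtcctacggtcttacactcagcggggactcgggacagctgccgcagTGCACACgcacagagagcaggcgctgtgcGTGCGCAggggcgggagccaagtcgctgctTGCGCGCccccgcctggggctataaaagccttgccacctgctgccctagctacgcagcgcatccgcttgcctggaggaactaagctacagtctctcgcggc
Slc30a1: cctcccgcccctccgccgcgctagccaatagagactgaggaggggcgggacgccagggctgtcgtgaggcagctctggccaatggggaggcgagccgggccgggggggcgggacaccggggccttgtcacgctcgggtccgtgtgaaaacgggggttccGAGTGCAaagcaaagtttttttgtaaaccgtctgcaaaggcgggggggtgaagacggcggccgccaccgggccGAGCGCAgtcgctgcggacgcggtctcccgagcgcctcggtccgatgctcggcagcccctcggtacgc
Slc30a2: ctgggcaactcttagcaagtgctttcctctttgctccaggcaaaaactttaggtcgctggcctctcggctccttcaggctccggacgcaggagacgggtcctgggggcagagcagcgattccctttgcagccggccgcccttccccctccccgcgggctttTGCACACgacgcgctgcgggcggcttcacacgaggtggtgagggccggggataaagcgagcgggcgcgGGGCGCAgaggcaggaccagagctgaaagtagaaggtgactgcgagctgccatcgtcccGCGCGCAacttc

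The Mt1 promoter held 6 matches, the Mt2A promoter 4 and the Mt3 promoter 3. In those promoters no match overlapped another. Of all 33469 rat promoters of this length in the RefSeq table, 24.2% held at least 1 match and 6.36% at least 2. At least 3 were held by 1.68%, at least 4 by 0.439% and at least 6 by 0.0388%. The members' promoters ran from 56.7% G and C (second start of Slc30a2) to 82.3% (Slc30a4), and the shares were not matched for this. Slc30a2 held 3 matches at its first start and 0 at its second. Slc30a4 held 3 matches, and Slc30a1, Mtf1 and Slc30a5 held 2 each, the pair in Slc30a5 overlapping on opposite strands. Slc30a9 held 0, and the Slc30a7 promoter was not analysed here. Mt1, Mt2A, Mt3 and Mt4 are consecutive protein-coding genes on chromosome 19 in that assembly. A match of these letters is a description and does not show that Mtf1 binds there.

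**Figure D1:**
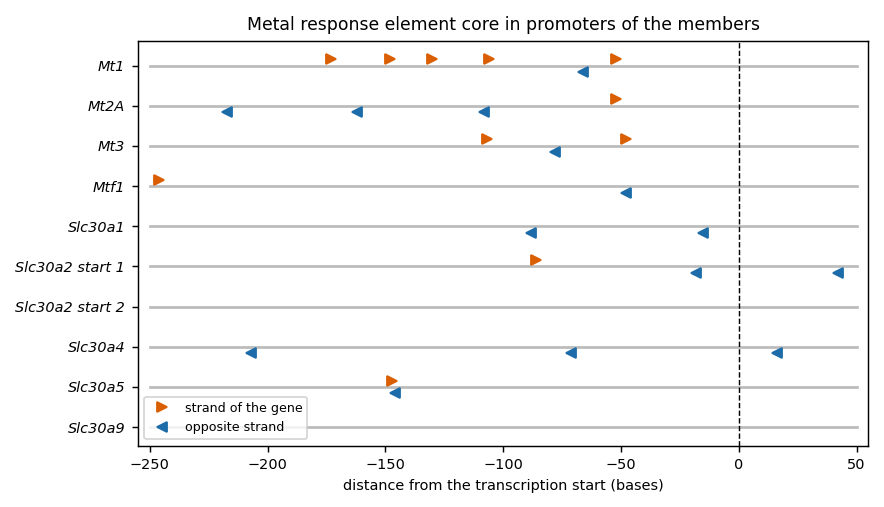
Positions of the metal response element core in the promoters of the members that were listed in RefSeq, in bases from the transcription start (dashed line), with orange triangles for the gene's strand and blue for the opposite strand. Mt1 has 6 matches and Mt2A 4 between the start and base -220, while Slc30a9 and the second start of Slc30a2 have 0.

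The design compares gene expression in renal cortex between dosed and vehicle rats. Over the 34915 features tested, limma called 0 features at an adjusted p under 0.05 (0.0% called), and 4219 (12.1%) had an unadjusted p under 0.05. None of the 10 genes passed after adjustment, and their lowest adjusted p was 0.345 (Slc30a2). In Mt3 and Slc30a2 the lowest DNPT rat lay above the highest vehicle rat, which is 2 of 10 members. Such a separation, in either direction, was found in 20.2% of all features tested and on the higher side in 12.1%, so the count for the members is near the background. An unadjusted p under 0.05 was reached by 1 of the 10, also Slc30a2, against 12.1% of all features in either direction and 6.02% on the higher side. Changes were positive in 7 of the 10 genes, with a median of 0.068, beside 52.3% positive and a median of 0.013 over all features and 57.5% and 0.038 over the 12687 named genes tested. That count was 9 with median scaling and 4 with normexp background correction and quantile normalization.

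**Figure D2:**
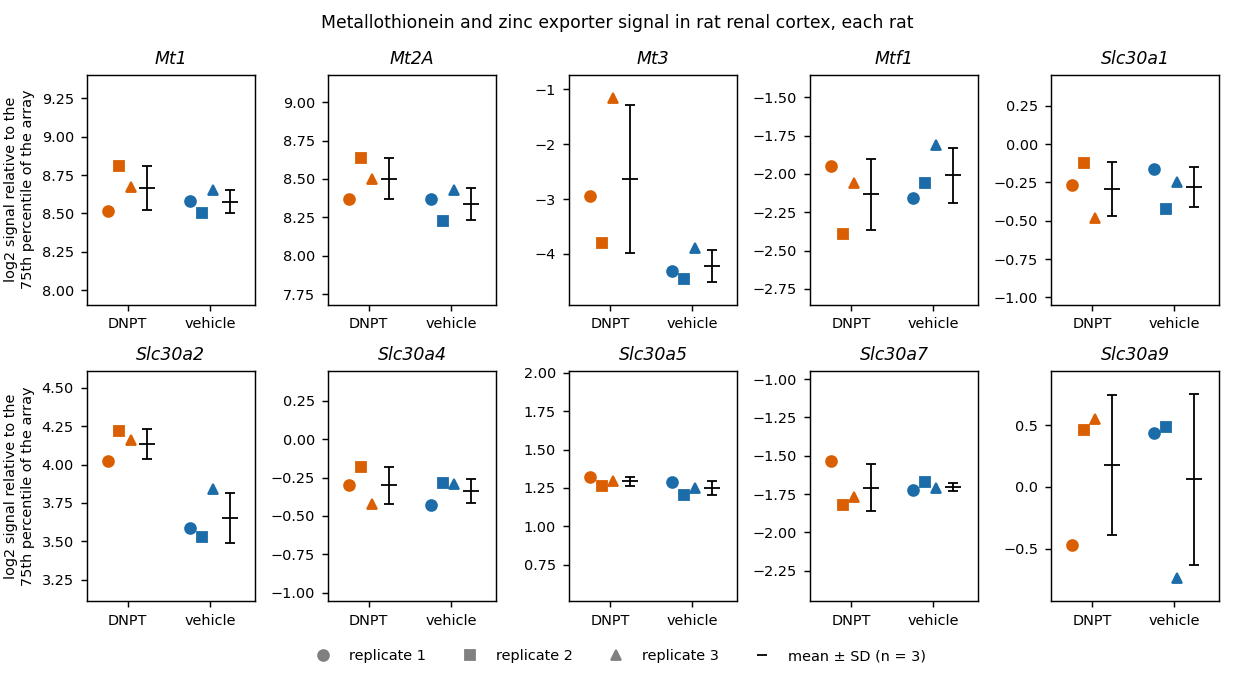
Log2 signal relative to the 75th percentile of the array for each member gene (its brightest probe) in each rat, with DNPT rats in orange, vehicle rats in blue, a marker shape for each replicate number, and bars for mean ± SD (n = 3). The panels differ in the range of the vertical axis. DNPT and vehicle values are apart in Mt3 and Slc30a2, overlap in the other 8 genes, and split into high and low rats across both groups in Slc30a9.

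Mt1 and Mt2A, the metallothioneins made in most tissues and induced by metals and by glucocorticoids, overlapped between the groups. Mt1 had signals of 8.52, 8.81 and 8.67 in DNPT replicates 1, 2 and 3, against 8.58, 8.50 and 8.65 in vehicle replicates 1, 2 and 3. DNPT replicate 1 lay below vehicle replicates 1 and 3, while DNPT replicates 2 and 3 lay above all 3 vehicle rats. The change was 0.089 (SE 0.11, adjusted p = 0.728), with a 95% interval of -0.17 to 0.35, and the exact two-sided permutation p was 0.4. Mt2A had signals of 8.37, 8.64 and 8.50 in DNPT replicates 1 to 3 and 8.37, 8.22 and 8.43 in vehicle replicates 1 to 3. DNPT replicate 1 again lay inside the vehicle range and the other two DNPT rats above it. Its change was 0.16 (SE 0.11, adjusted p = 0.536, 95% interval -0.10 to 0.43). Both intervals include 0. The 2 genes ranked the 6 rats in the same order.

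The direction for Mt1 turned in 5 of 20 alternatives, and that for Mt2A in 1 of 21, normexp with quantile normalization. These counts are not of independent alternatives. The slide block and slide 1 alone share 1 value, and several settings return the main value unchanged. The second Mt1 probe (A_43_P13297) had a change of 0.19 (SE 0.18) and the other two Mt2A probes changes of 0.18 (SE 0.15) and 0.14 (SE 0.13), but Mt1 was at -0.053 with quantile normalization, -0.067 with cyclic loess and -0.075 with normexp, where Mt2A was at -0.016. Mt2A kept its sign but came near 0 with quantile normalization (0.022) and with cyclic loess (0.0082). On slide 1 alone the Mt1 change was -0.058 and the Mt2A change 0.029. Without DNPT replicate 1 the Mt1 change was 0.37 (adjusted p = 0.209), but the second probe was then the brighter one and stood for the gene. These probes were very bright. The Mt1 probe had a processed signal, in scanner units, of 407626, 425604 and 406080 in DNPT replicates 1 to 3 and 477374, 481469 and 467676 in vehicle replicates 1 to 3, or 52.1% to 61.8% of the value at which the scanner saturates. Before scaling every DNPT signal of this probe was thus below every vehicle signal, while the second Mt1 probe overlapped. The brightest Mt2A probe gave 367454, 378519 and 359565 in DNPT replicates 1 to 3. It gave 412713, 397390 and 400047 in vehicle replicates 1 to 3, so again every DNPT signal was lower. Of the remaining Mt2A probes, A_64_P158939 had the same order and A_42_P567267 overlapped. For the brightest probe of each gene, the order of the group means turned on division by each array's own 75th percentile. This percentile ran from 950 to 1111 in DNPT arrays and from 1164 to 1330 in vehicle arrays. Mt1 and Mt2A have closely related sequences, and how far their probes read each other's transcript was not tested.

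Mt3, the metallothionein known from brain as a growth inhibitory factor, had the largest fitted change of the members. Its brightest probe (A_44_P1008888) had signals of -2.94, -3.79 and -1.15 in DNPT replicates 1 to 3, against -4.30, -4.45 and -3.89 in vehicle replicates 1 to 3. The DNPT rats spread over a wide range, from DNPT replicate 2, just above vehicle replicate 3, to DNPT replicate 3, far above every other rat. The means were -2.63 ± 1.35 in DNPT rats and -4.22 ± 0.29 in vehicle rats, a change of 1.59 (SE 0.67, 3.01-fold), which did not pass (adjusted p = 0.418, 95% interval -0.06 to 3.23).

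The other Mt3 probe (A_64_P134053) also had every DNPT value above every vehicle value, but it ordered the DNPT rats differently. Its signals were -3.48, -3.16 and -3.88 in DNPT replicates 1 to 3 and -4.15, -4.28 and -3.89 in vehicle replicates 1 to 3. DNPT replicate 3, the highest rat on the first probe, was the lowest DNPT rat here and lay next to vehicle replicate 3. The change was 0.60 (SE 0.21, 1.52-fold, adjusted p = 0.399), against 3.01-fold on the first probe, so the 2 probes disagree on the size and on the rats that carry it. For both probes the exact two-sided permutation p was 0.1, the smallest that 3 against 3 allows. In scanner units the first probe gave 144, 68.5 and 449 in DNPT replicates 1 to 3 and 63.1, 60.8 and 78.4 in vehicle replicates 1 to 3, and before scaling DNPT replicate 2 thus lay below vehicle replicate 3. The second probe gave 99.6, 106 and 67.7 in DNPT replicates 1 to 3 and 70.1, 68.3 and 78.4 in vehicle replicates 1 to 3, with DNPT replicate 3 below all 3 vehicle rats. On both Mt3 probes the groups were therefore apart only after scaling. Without DNPT replicate 3 the change was 0.79 (adjusted p = 0.485), with the second probe, then the brighter one, standing for the gene, and on slide 1 alone it was 1.27.

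DNPT replicate 3 also stood apart in markers of liver. All 10 of 10 liver genes listed (Alb, Ttr, Apoa1 and others) were tested, all 10 had positive changes and 0 passed. DNPT replicate 3 was the highest rat in every gene of this list, and the groups overlapped in 9 of the 10. Vehicle replicate 2 had Alb at 0.48 and Ttr at -0.02, above DNPT replicates 1 and 2. In this list, Apoa2, Ttr, Fgg and Serpina1 were not well above background on every array. A summed linear signal is weighted towards the brightest probes of its list. The sum of the 10, in multiples of the array's 75th percentile, was 11.49, 10.98 and 38.70 in DNPT replicates 1 to 3 and 10.38, 11.91 and 10.65 in vehicle replicates 1 to 3. The part of this liver signal in the Mt3 value of DNPT replicate 3 was not tested.

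Mtf1, the transcription factor that senses zinc, overlapped between the groups. It had signals of -1.95, -2.39 and -2.06 in DNPT replicates 1 to 3, against -2.16, -2.06 and -1.81 in vehicle replicates 1 to 3. The lowest rat was a DNPT rat and the highest a vehicle rat, with the other four mixed. The change was -0.12 (SE 0.16, adjusted p = 0.744, 95% interval -0.51 to 0.26), and it was 0.058 on slide 1 alone.

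Slc30a1, which makes ZnT1, the exporter of the plasma membrane and a standard target of Mtf1, differed between the groups by less than the spread between rats. Its signals were -0.27, -0.13 and -0.48 in DNPT replicates 1 to 3 and -0.16, -0.42 and -0.25 in vehicle replicates 1 to 3. Both groups were spread over the whole range, with a DNPT rat at each end. The change was -0.013 (SE 0.13, adjusted p = 0.972), with a 95% interval of -0.33 to 0.30, and it was 0.0092 on slide 1 alone and 0.010 with median scaling.

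Slc30a2 makes ZnT2, which loads zinc into vesicles and is needed for zinc secretion into milk in mice and humans. It had the smallest p of the members. Its brightest probe (A_42_P663722) had signals of 4.03, 4.22 and 4.16 in DNPT replicates 1 to 3, against 3.59, 3.53 and 3.84 in vehicle replicates 1 to 3. Every DNPT rat lay above every vehicle rat, with DNPT replicate 1 and vehicle replicate 3 nearest to each other. The means were 4.13 ± 0.10 in DNPT rats and 3.65 ± 0.16 in vehicle rats, a change of 0.48 (SE 0.12, 1.40-fold). It had an adjusted p of 0.345 and did not pass. The exact two-sided permutation p was 0.1, the smallest possible.

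The other Slc30a2 probe (A_44_P1004790) carries the accession of a different Slc30a2 transcript and gave a similar difference. Its signals were 2.71, 3.03 and 2.91 in DNPT replicates 1 to 3 and 2.36, 2.15 and 2.67 in vehicle replicates 1 to 3. It ordered the 6 rats as the first probe did, again with all DNPT rats above all vehicle rats, and its change was 0.49 (SE 0.16, 1.40-fold, adjusted p = 0.395). The change of the gene was between 0.37 and 0.57 under its 20 alternatives, and was 0.37 on slide 1 alone. With the groups apart, leaving out a rat or keeping slide 1 alone could not turn its sign. Several other settings returned the same 0.48, so the 20 values are not separate evidence for the direction. The lowest adjusted p among the 20 was 0.109. Before any scaling, the first probe gave 18094, 17651 and 17794 scanner units in DNPT replicates 1 to 3 and 15006, 15363 and 16640 in vehicle replicates 1 to 3, so the groups were apart there too. The second probe gave 7284, 7751 and 7471 in DNPT replicates 1 to 3 and 6417, 5896 and 7392 in vehicle replicates 1 to 3, and there vehicle replicate 3 lay above DNPT replicate 1.

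Summed marker signals, again weighted towards the brightest probes, did not overlap between the groups in 4 cell type lists. In all other cell type lists the sums overlapped. Among single features, 20.2% were apart in either direction, and no such share was computed for sums. The 8 proximal tubule markers summed to between 1577 and 1836 in the DNPT rats, against 1415 to 1568 in the vehicle rats, a narrow gap. Of the 8 changes 7 were positive, and the groups were apart in 2 of these markers. The 6 distal and collecting duct markers summed to 291 to 313 in DNPT rats and 257 to 287 in vehicle rats, with 4 of 6 positive. The 5 red cell markers summed to 531 to 596 in DNPT rats and 400 to 497 in vehicle rats, with 5 of 5 positive. No marker in these first 3 lists passed, and each was well above background on all 6 arrays except Hemgn, which missed it in 1 vehicle rat. The inner medulla and urothelium list was lower and summed to 0.414 to 0.425 in DNPT rats and 0.462 to 0.508 in vehicle rats, with 4 of 4 tested changes negative and Upk2 not well above background on any array. The 3 thick ascending limb markers had 3 negative changes and sums that overlapped, 232 to 322 in DNPT rats and 273 to 335 in vehicle rats. The 4 tested macrophage markers had 4 negative changes, and the sums of the list overlapped, at 49.99 to 64.3 in DNPT rats and 60.7 to 76.7 in vehicle rats. Of the 5 tested lymphocyte markers, 2 had every DNPT rat above every vehicle rat and 2 had every DNPT rat below. The lymphocyte sums overlapped, at 0.855 to 1.108 in DNPT rats and 1.090 to 1.206 in vehicle rats. The part of these markers in the Slc30a2 difference was not tested, and in whole tissue more cells of a type cannot be told apart from more RNA per cell.

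**Figure D3:**
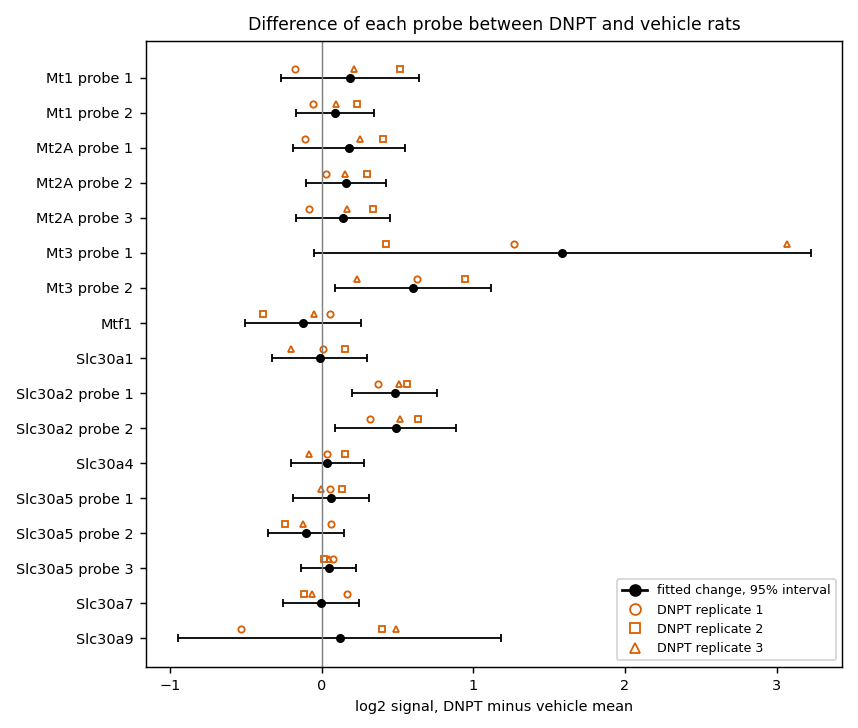
Difference in log2 signal of each of the 17 probes between DNPT rats and the vehicle mean, with black points and bars for the fitted change and its 95% interval with every probe tested singly, and open orange markers for each DNPT rat. The intervals of both Slc30a2 probes and of the second Mt3 probe lie above 0 before adjustment, and DNPT replicate 3 stands far to the right on the first Mt3 probe alone.

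Of the exporters into vesicles or the Golgi apparatus, Slc30a4, Slc30a5 and Slc30a7 did not separate between the groups. Slc30a4 makes ZnT4, which moves zinc into vesicles and into milk in the mouse, and had signals of -0.30, -0.18 and -0.42 in DNPT replicates 1 to 3 and -0.43, -0.29 and -0.29 in vehicle replicates 1 to 3. DNPT replicate 3 and vehicle replicate 1 were the lowest rats, next to each other, and the change was 0.038 (SE 0.099, 95% interval -0.21 to 0.28). Slc30a5 makes ZnT5, a zinc transporter of the Golgi apparatus, and its brightest probe gave 1.32, 1.26 and 1.29 in DNPT replicates 1 to 3 against 1.29, 1.20 and 1.249 in vehicle replicates 1 to 3. These 6 values lay closer together than those of the other members, with a change of 0.046 (SE 0.075, 95% interval -0.14 to 0.23). The other two Slc30a5 probes had changes of 0.062 and -0.10, of opposite sign. Slc30a7 makes ZnT7, another Golgi transporter, and had -1.54, -1.82 and -1.77 in DNPT replicates 1 to 3 against -1.72, -1.67 and -1.71 in vehicle replicates 1 to 3. The 3 vehicle rats fell between DNPT replicate 1 and the other two DNPT rats, and the change was -0.0050 (SE 0.10, 95% interval -0.26 to 0.25), with 0.17 on slide 1 alone.

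Slc30a9, which makes the ZnT9 protein that exports zinc from mitochondria, split the rats across the groups. Its signals were -0.47, 0.46 and 0.55 in DNPT replicates 1 to 3, against 0.43, 0.48 and -0.74 in vehicle replicates 1 to 3. DNPT replicate 1 and vehicle replicate 3 were low and the other 4 rats lay close together at a higher level. The group means, 0.18 ± 0.57 for DNPT and 0.06 ± 0.69 for vehicle, therefore describe none of the rats, and the change was 0.12 (SE 0.43, adjusted p = 0.919). Without vehicle replicate 3 the change was -0.28, without DNPT replicate 1 it was 0.44, and on slide 1 alone it was -0.53. Over all features tested, the deviations of these 2 rats from their group means had a correlation of 0.333, the highest of the 9 pairs of a DNPT and a vehicle rat.

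**Figure D4:**
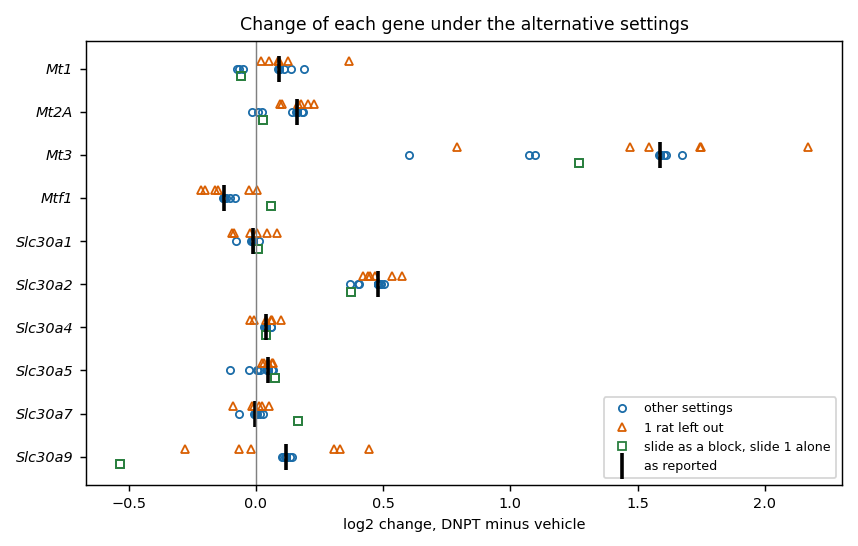
Log2 change of each member gene, DNPT minus vehicle, as reported (black bar), with 1 rat left out (orange triangles), with slide as a block or slide 1 alone (green squares) and under the other settings (blue circles). Slc30a2 stays between 0.37 and 0.57 and Mt3 between 0.60 and 2.17, while Mt1, Mt2A, Mtf1, Slc30a1, Slc30a4, Slc30a5, Slc30a7 and Slc30a9 have values on both sides of 0.

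Other genes of metal handling were counted from lists. Of the other ZnT and metallothionein genes, Slc30a3, a transporter of synaptic vesicles in brain, had a change of -0.28 (SE 0.24), Slc30a8, Slc30a10 and Mt4 were not well above background on any array, and Slc30a6 was not analysed here. Of 14 ZIP zinc importers listed, 12 were tested, 7 had positive changes (median 0.01) and 0 passed in either direction. In 5 of the 12 the groups did not overlap, with DNPT on the higher side, a larger share than the 12.1% of all features. Whether the list differs from other features was not tested. Slc39a4, the importer of dietary zinc in the gut, had signals of 1.27, 1.07 and 1.03 in DNPT replicates 1 to 3 and 0.25, 0.26 and 0.25 in vehicle replicates 1 to 3. The gap between its groups was wider than the spread within either, with a change of 0.87 (SE 0.094), but the adjusted p was 0.148. Slc39a2 had a change of 1.43 (SE 0.37, adjusted p = 0.355) and was not well above background in 1 of 3 vehicle rats.

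Copper is also bound by metallothioneins, and the genes listed for copper handling had 7 of 10 positive changes (median 0.046) and 0 calls. The copper importer Slc31a1 had signals of 0.84, -0.62 and -0.60 in DNPT replicates 1 to 3 and 0.77, 0.79 and 0.95 in vehicle replicates 1 to 3. DNPT replicates 2 and 3, the rats of slide 2, were low and DNPT replicate 1 lay among the vehicle rats, with a change of -0.97 (SE 0.41, adjusted p = 0.420). Cp, the plasma copper protein ceruloplasmin, had a change of -0.18 (SE 0.15). Of 10 genes listed as responsive to glucocorticoids, which also induce Mt1 and Mt2A, 4 had positive changes (median -0.057) and 0 passed. In 2 of the 10, Sgk1 among them, every DNPT rat lay below every vehicle rat, near the 20.2% of all features apart in either direction. The largest changes were Sgk1, a kinase that regulates sodium transport, at -1.20 (SE 0.35, adjusted p = 0.371), and the transcription factor Zbtb16 at 1.18 (SE 1.02, adjusted p = 0.625). Zbtb16 overlapped between the groups and was not well above background in 1 of 3 DNPT rats.

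The genes whose signals followed those of Mt1 and Mt2A most closely over the 6 arrays were named as a description. Among 12666 named genes, the highest Pearson r with the mean of Mt1 and Mt2A belonged to Klhdc2 (0.994), Ptpn22 (0.993), Mindy3 (0.991), Slc52a3 (0.988) and Haus3 (0.987). For Slc30a1 they were Pak3 (0.982), Mtss2 (0.980), Kif16b (0.979), Ssc5d (0.974) and Sit1 (0.973). With 6 points, shared arrays and shared scaling, and so many genes searched, nothing is read from values of this height.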

How the data were processed

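Total RNA of 6 samples of rat renal cortex, 3 per group by the treatment in the labels, was labelled with Cy3, per the labels' protocols. Agilent Feature Extraction read the scans, per the submitters' processing notes. The deposited scanner files give an intensity per spot, the processed signal, corrected for background per the file headers. The value table is a linear ratio as deposited, which matched the processed signal of each array over a constant with no centring. Of the probes compared, 100% were within 0.5% of 1 factor, 1.00 times the 75th percentile. Probes with table values up to just below the column medians were left out of this comparison. The authors' tool for it is not stated in those sources. Column medians were 0.112 to 0.116.

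Of 61537 probes that were not controls, 28206 matched 1 gene of the RefSeq table (GRCr8, names only), 0 several and 33331 none. The 113 values flagged as outliers were left out. Log2 signal minus the array's 75th percentile was tested for probes well above background on at least 3 of 6 arrays, with at least 2 values per group. A gene was its tested probe of highest mean signal. Between 42116 and 43402 probes were well above background in DNPT arrays and between 44730 and 45167 in vehicle arrays, and the number of arrays limits precision. Slide 1, scanned on day 1, held the 3 vehicle arrays and DNPT replicate 1, and slide 2, scanned on day 2, the other two. Renal cortex markers (8 of proximal tubule, 3 of podocytes) were well above background on all 6 arrays.

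Groups were compared with limma 3.58.1 (lmFit, eBayes, two-sided, no covariates) in R 4.3.3, and p-values were adjusted by Benjamini-Hochberg across the 34915 features, with a threshold of 0.05. The procedure was run on simulated data with independent noise and no slide effect, which cannot show how it performs on these arrays. Members, lists and tests were chosen with earlier results of these data known. Named genes were the 10 members, the 2 largest changes per list and the 5 genes most alike by Pearson r. Alternatives were other normalizations and background correction, the value table, dim-probe filters, probe rules, an intensity trend, a block for slide or for replicate number, slide 1 alone and each rat left out. Cyclic loess was added after seeing the data. Normexp (offset 50) was run on the median and background signals.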

Additional observations from a re-analysis of the deposited data

How the results depend on the processing

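Of the 197 values of member changes under an alternative, 0 passed an adjusted p of 0.05. Mt3 and Slc30a2 had a positive change in all 20 of theirs. On both probes of each gene the groups were apart, so leaving out a rat or keeping slide 1 alone could not turn the sign. Several other settings returned the main value unchanged, so this count adds little to the separation itself. The calls over all features were 2 with normexp, 1 with a slide block, 1 within slide 1 and 0 to 632 with each rat left out, where 632 came without DNPT replicate 1 and 3 without vehicle replicate 2. Features with an unadjusted p under 0.05 numbered 8756 with no filter on dim probes, when 48976 were tested, 2389 with a slide block, 2702 within slide 1 and 2445 to 7293 with each rat left out (7293 came without DNPT replicate 1, and 2461 and 2445 without vehicle replicates 1 and 2). With normexp 4 members had a positive change. With the slide block and within slide 1, both resting on DNPT replicate 1, the sign turned for Mt1 (-0.058), Mtf1 (0.058), Slc30a1 (0.0092), Slc30a7 (0.17) and Slc30a9 (-0.53). Quantile normalization turned Mt1 (-0.053) and Slc30a7 (0.0059), median scaling Slc30a1 (0.010) and Slc30a7 (0.018), cyclic loess Mt1 (-0.067) and Slc30a7 (0.026), and normexp Mt1 (-0.075), Mt2A (-0.016) and Slc30a5 (-0.028). A second Slc30a5 probe gave -0.10. With each rat left out, ranges that crossed 0 were -0.22 to 0.0040 for Mtf1, -0.095 to 0.081 for Slc30a1, -0.022 to 0.098 for Slc30a4, -0.091 to 0.051 for Slc30a7 and -0.28 to 0.44 for Slc30a9. The cause of these turns was not tested. With replicate number as a replicate block, although deviations of rats with the same number had correlations of -0.18, -0.06 and -0.18 and do not pair them, 0 features passed, 3090 had an unadjusted p under 0.05, and the Slc30a2 change of 0.48 had an adjusted p of 0.550.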
